A study of Mus musculus with 19 samples.

Results

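The proteasome genes and the ubiquitin-handling enzymes were followed through the development of the mouse Schwann cell lineage, as RNA in sorted reporter-positive cells at 6 stages. Members were all probe sets whose single annotated symbol begins like the proteasome families Psma to Psmg, the E2 family Ube2, the E1 family Uba or the deubiquitinase families Usp and Uch, leaving out the interferon-inducible Psmb8 and Psmb9. The rule used names only, and it found 130 probe sets for 97 genes among the 12422 probe sets that were not array controls, or 97 of 8251 genes with such a probe set. Of these, 120 probe sets for 93 genes were above a low-signal floor of 68.52 index units on at least 3 arrays and were tested.

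The cells came from mouse embryos and newborns that carried a green fluorescent protein reporter under a glial promoter, one that is on in crest stem cells and, at later stages, in glia. E9.5 had 3 arrays of cells labelled neural crest stem cells, taken from the trunk. E12 had 3 arrays of sciatic nerve cells labelled Schwann cell precursors. E14, E18 and P0, the day of birth, had 3 arrays each and E16 had 4, all of fluorescent sciatic nerve cells labelled Schwann cells. In E12 against E9.5, tissue and stage cannot be told apart. All groups carried the reporter and were sorted for it, so each group is the set of cells in which the promoter was active. No strain, sex or number of embryos is given. Since replicate arrays are not said to be different animals, the p-values cover the array-to-array spread alone, which may be technical.

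The 26S proteasome degrades proteins that carry a chain of ubiquitin. Its barrel, the 20S core, is built of alpha subunits, which form the gate, and beta subunits, 3 kinds of which cut the protein chain. The 19S cap recognises ubiquitin and contains a ring of ATPases that unfolds the protein and feeds it into the barrel. Ubiquitin is activated by E1 enzymes, passed to E2 conjugating enzymes and attached to targets with the help of E3 ligases. Deubiquitinases of the USP and UCH families take it off again. Growing and dividing cells depend on this system for the turnover of cell cycle proteins, and in differentiating glia it also removes proteins no longer needed.

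Values are the deposited expression indices, on a linear scale that is comparable between arrays for 1 probe set but not between probe sets. Each array had 22.6% to 27.2% of its values at or under the floor. As a check of the labels, the summed index of 15 crest and glial markers was 8380 to 9696 at E9.5, 19940 to 23970 at E12 and 18630 to 35240 at P0. Mbp, the myelin basic protein, had a mean index of 4374 at P0 on its stronger probe set, against 190.5 at E12. Pax3, an early crest transcription factor, had a mean of 196.7 at E12 and 1095 at E9.5. Of the 14 neuronal markers on the array, 5 to 7 were not above the floor on any array of a stage, Map2, Isl1, Elavl4 and Syt1 at every stage. Tubb3, a neuronal tubulin, was measured, with stage means of 721.6 to 1162 on its stronger probe set. The 14 fibroblast markers had a summed index of 2750 to 3791 at E9.5, 13410 to 16150 at E12 and 23580 to 31340 at P0. The 14 macrophage markers had 1519 to 1768 at E9.5, 2704 to 5589 at E12 and 1635 to 2045 at P0. Of these, 6 were not above the floor on any E9.5 array, 2 (Lyz2 and Fcer1g) on any E12 array and 5 on any P0 array. Of the 12 macrophage markers tested 6 were higher at E12 against E9.5, and 4 were lower at P0 against E12. The part of such cells in the results below was not tested, and in a sorted bulk sample fewer cells of a type and less RNA per cell cannot be told apart.

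Most members were highest at the start of the series. Of the 120 tested probe sets, 62 (51.7%) had their highest stage mean at E9.5, where 25.1% of all tested probe sets had theirs. A further 30 (25%) were highest at E12, against 20.3% of all. P0 held the lowest stage mean of 41 members (34.2%), against 19.5% of all probe sets. The mean of all members, on a log2 scale centred on each probe set's mean over the 19 arrays, was 0.321 ± 0.087 at E9.5 and 0.183 ± 0.071 at E12 (SD, n = 3 each). It then ran at -0.024 ± 0.068 in E14 cells, -0.089 ± 0.152 in E16 cells (n = 4), -0.168 ± 0.026 in E18 cells and -0.193 ± 0.3 at P0. For the 42 probe sets of 26S subunits the same centred mean was 0.38 at E9.5, 0.178 at E12, -0.072 in E14 cells, -0.127 in E16 cells, -0.188 in E18 cells and -0.13 at P0. The P0 arrays differed most among themselves. The 3′ over 5′ signal ratio of Gapdh is an array control that reads the quality of RNA and amplified target together. With this ratio as a covariate, the median fitted member change was 0.006 at E12 against E9.5 and -0.007 at E14 against E12. Without it the medians were -0.113 and -0.193.

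**Figure D1:**
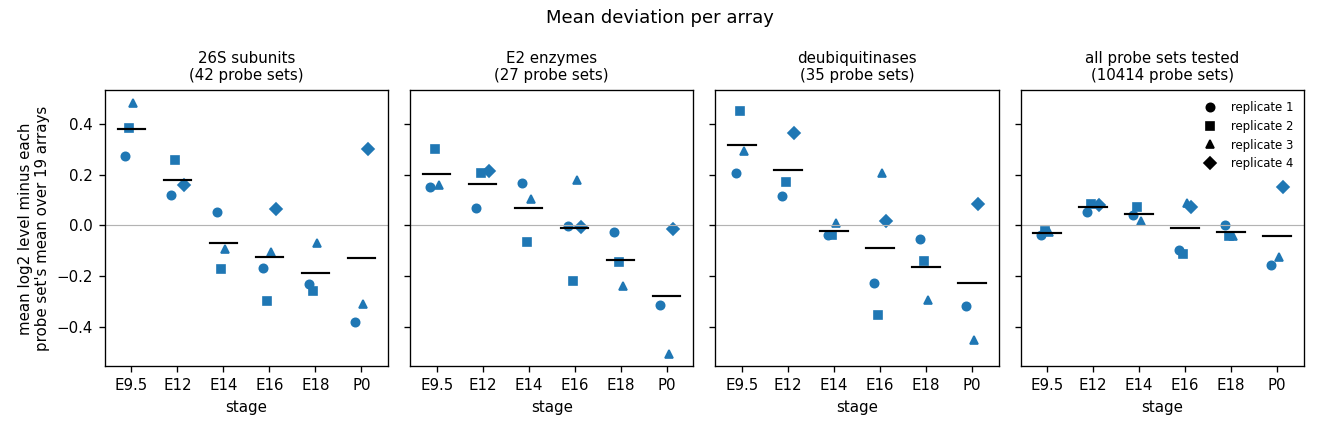
Centred mean log2 level by stage for 26S subunits, E2 enzymes, deubiquitinases and all tested probe sets, 1 mark an array and a bar at the stage mean. The 3 member groups are highest at E9.5, and the 26S subunits at P0 split into 2 arrays at -0.381 and -0.31 and 1 array at 0.302.

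P0 replicate 4 stood apart from the other P0 arrays. Its centred mean over 26S subunits was 0.302, while P0 replicates 1 and 3 had -0.381 and -0.31 and the E12 arrays had 0.119 to 0.256. Over all tested probe sets the same mean was 0.149 on P0 replicate 4 and -0.156 and -0.123 on P0 replicates 1 and 3. The Gapdh ratio was 7.69, 6.80 and 4.69 on P0 replicates 1, 3 and 4, against 4.53, 4.23 and 3.18 on E12 replicates 1, 2 and 4. It was 5.8, 9.12, 4.26 and 3.84 on E16 replicates 1 to 4, and 2.33 to 3.41 at E9.5. Over all probe sets of the table, P0 replicate 1 was closest to E16 replicate 1 (Spearman 0.952), and P0 replicate 4 to E16 replicate 4 (0.965). The results for P0 are therefore given with and without the arrays concerned. The part of RNA or target quality in them was not tested beyond the fit that carries the Gapdh ratio as a covariate.

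**Figure D2:**
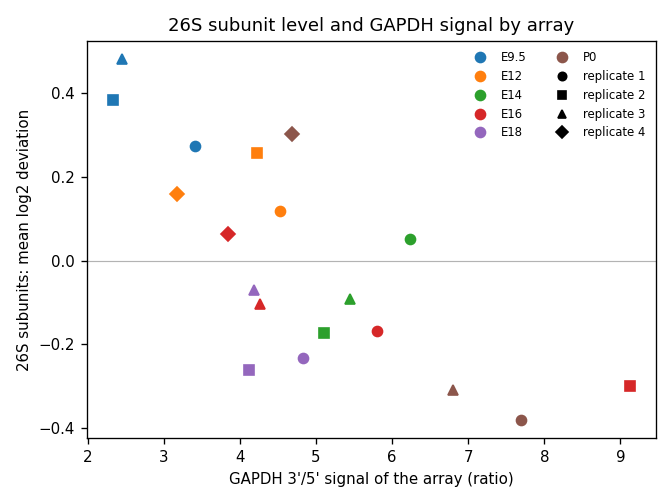
Centred mean log2 level of the 26S subunits on each of the 19 arrays, against the 3′ over 5′ signal ratio of Gapdh on a linear axis, with the stage as colour and the replicate as mark. P0 replicate 4, at a ratio of 4.69, lies at 0.302, above P0 replicates 1 and 3 at ratios of 7.69 and 6.80.

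The first comparison asks what differs between sciatic nerve precursors at E12 and trunk crest cells at E9.5. Few members changed, and more of them fell than rose. Of 120 members, 8 were lower at E12 (6.67%, where 4.41% of all tested probe sets were lower) and 3 were higher (2.5%, where 9.7% of all were higher; limma, Benjamini-Hochberg adjusted p under 0.05). The median member changed by -0.11 on the log2 scale, and the median of all probe sets by 0.01. The Gapdh ratio, 3.18 to 4.53 at E12 and 2.33 to 3.41 at E9.5, moved with the stage. With it as a covariate the member median was 0.006, that of all probe sets 0.07, and 5 of the 8 falls and 2 of the 3 rises were kept. Among the 81 members at or above the median level of the array, 4 (4.94%) were lower and 2 (2.47%) higher, against 3.15% and 13.1% of all probe sets at such levels. The count of lower members was 5, 4 and 5 without E9.5 replicates 1, 2 and 3, and 5 and 3 without E12 replicates 1 and 2. It was 14 without P0 replicate 4, an array of neither stage. The count of higher members was 1 without E9.5 replicate 1 and 1 without E12 replicate 2. For fits with an array left out the share of all probe sets called is not given. Such counts therefore do not set members against other genes.

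Psme3, which encodes a nuclear activator ring (PA28 gamma) that opens the 20S barrel without ubiquitin, fell furthest. Its index was 46.67, 69.37 and 206.5 on E12 replicates 1, 2 and 4, against 409.2, 953.4 and 419.8 on E9.5 replicates 1 to 3. The stages did not overlap, and E12 replicate 4 was the highest of its stage. The change was -2.46 on the log2 scale (SE 0.508), at least 5.5-fold with 1 E12 array at the floor (limma, adjusted p = 0.00309). It passed in each of the 30 alternatives set for single genes. The gene stayed low later, with 98.82 to 135.2 at E14, 63.46 to 208.6 at E16, 35.28 to 131.6 at E18 and 32.67 to 153 at P0.

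Psmb7, the catalytic beta subunit with trypsin-like activity, had 482.3, 655.9 and 1765 on E12 replicates 1, 2 and 4, against 2548, 3272 and 2132 on E9.5 replicates 1 to 3. E12 replicate 4 was nearer to E9.5 than to its own stage. The fall was -1.66 (SE 0.478, 3.17-fold, limma adjusted p = 0.0274). It was not called without E9.5 replicate 1 or 2, or without E12 replicate 1 or 2 (adjusted p from 0.068 to 0.15). On the lot 4 arrays the gene had 1765 at E12, 1594 at E16 and 1699 at P0, where P0 replicates 1 and 3 had 723.1 and 605.6. This pattern was picked out after the values were seen. Such values were not confined to lot 4, since E16 replicate 3, of lot 3, had 1677. E14 replicates 1 to 3 had 1037, 1228 and 1456. The probe set is of the class that can cross-hybridise within a gene family (suffix _f).

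Of the 9 probe sets of the 19S ATPase ring 1 passed the test at E12, where 4.41% of all were lower. All 9 were fitted below 0, where 45.8% of all were, with a median change of -0.36. Within lot 2, a lot number whose meaning the labels do not give, 7 of the 9 were below 0. The called probe set was of Psmc5, at 213, 295.2 and 311.6 at E12 against 411.8, 664.4 and 599.3 at E9.5. Its change was -1.02 (SE 0.313, limma adjusted p = 0.0383), and it was not called without E9.5 replicate 2 or 3 or any 1 E12 array (adjusted p from 0.052 to 0.17). The second Psmc5 probe set changed by -0.42 and was not called. Over the 26S subunits as a whole, 3 of 42 probe sets were lower and 0 higher, with a median of -0.19. The third was Psmb4, a non-catalytic beta subunit, by -1.07 (adjusted p = 0.0352) on 1 of its 3 probe sets, while the other two changed by 0.42 and 0.02. That call was lost without E9.5 replicate 1 or 2 or E12 replicate 4 (adjusted p from 0.11 to 0.17).

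Psmd5, a chaperone that assembles the ATPase ring, fell by 0.54 on the log2 scale, at 449.8, 469.4 and 562.9 at E12 against 634.3, 709.7 and 808 at E9.5 (limma adjusted p = 0.0188). The call was lost without E9.5 replicate 2 or 3 or E12 replicate 1 or 2 (adjusted p from 0.058 to 0.097). The deubiquitinases Usp12 and Usp3 fell by 0.66 and 0.77 (adjusted p = 0.0143 and 0.00836). Usp12 was not called without E9.5 replicate 1 or E12 replicate 2 (adjusted p from 0.051 to 0.083), nor Usp3 without E12 replicate 2 (0.055). Psmc3ip, a recombination factor matched by its name alone and not a proteasome subunit, fell by 0.95 (adjusted p = 0.0116; 0.058 without E9.5 replicate 3 and 0.055 without E12 replicate 4). Other settings also ended calls among the 8 falls. With the Gapdh covariate Psmb7, Psmc5 and Psmd5 were lost, and Psmb7 changed by -0.91 (limma adjusted p = 0.11, 0.11 and 0.083). With no filter on low values Psmb7, Psmc5 and Psmb4 were lost (0.055, 0.066 and 0.062), and with a floor at the 10th percentile Psmc3ip and Usp3 (0.11 and 0.16). Psmb4 was also lost with the lot or the replicate number as a block (0.065 and 0.067).

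The 3 rises were enzymes that handle ubiquitin and not proteasome subunits. Uchl1, a ubiquitin hydrolase best known as an abundant neuronal protein, had 114.8, 145.5 and 160.3 at E12, against 50.29, 78.99 and 73.01 at E9.5. Every E12 array was above every E9.5 array, though the levels lie close to the floor. It rose by 0.92 on the log2 scale (SE 0.155), at least 1.89-fold with 1 E9.5 array at the floor (limma adjusted p = 0.000584). The call held in all 29 alternatives that tested it, and with a floor at the 40th percentile it was not tested. Of 9 tested neuronal markers 0 were called at E12, and the summed index of the list was 1952 to 2222 at E12 and 2462 to 2635 at E9.5.

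Ube2r2, an E2 that works with cullin ligases, had 2588, 3281 and 2581 at E12 against 1407, 1587 and 1923 at E9.5. The stages did not overlap. It rose by 0.78 (SE 0.195, 1.72-fold, limma adjusted p = 0.0118), and was not called without E9.5 replicate 1 (0.062) or E12 replicate 2 (0.067). Usp9x, an X-linked deubiquitinase, rose by 0.61 on 1 of its 2 probe sets (adjusted p = 0.044). That call was lost without any 1 of 10 arrays, namely all 3 of E9.5, E12 replicates 2 and 4, E14 replicate 3, all 3 of E18 and P0 replicate 3 (adjusted p from 0.051 to 0.14). It was also lost with a floor at the 10th percentile, quantile normalization, arrays scaled to 1 median and the Gapdh covariate (0.057 to 0.23).

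**Figure D3:**
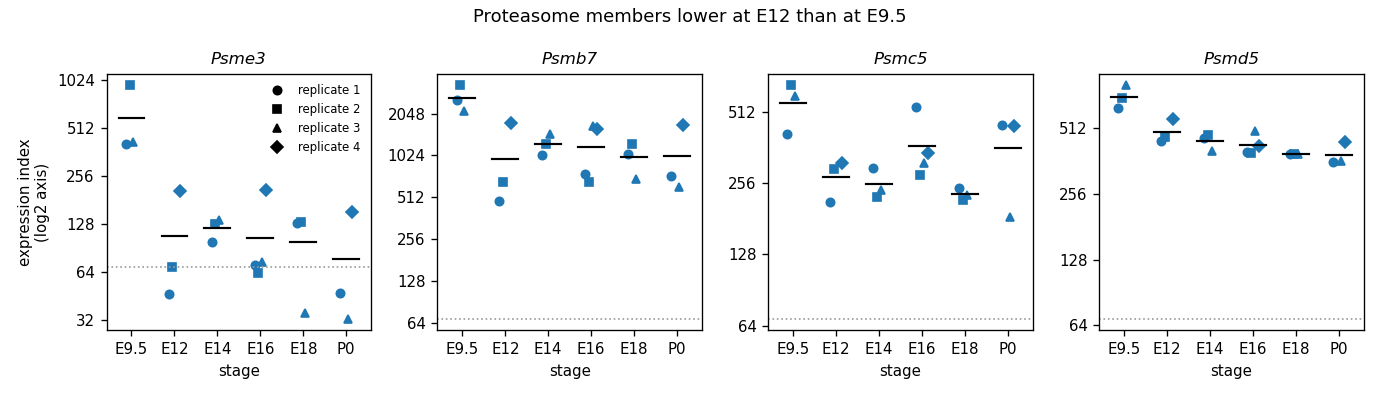
Index of Psme3, Psmb7, Psmc5 and Psmd5 by stage on a log2 axis, 1 mark an array, a bar at the stage mean and a dotted line at the floor. Psme3 lies at 46.67 to 206.5 at E12 and at 409.2 to 953.4 at E9.5, and E12 replicate 4 is the highest E12 array in each panel.

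Between neighbouring stages within the nerve, few or no members passed. At E14 against E12, 0 of 120 were higher and 2 lower, where 1.08% and 1.02% of all probe sets were. Both were probe sets of Usp3, a deubiquitinase of histone H2A. One, of the _g class, had 98.83, 68.79 and 120.5 at E14 against 219.1, 214 and 197.4 at E12, a change of -1.17 (SE 0.278, limma adjusted p = 0.0363). The other, of the plain class, changed by -0.77 (adjusted p = 0.0358). With 1 array left out, the plain one was lost without E12 replicate 1 or 4, any 1 E14 array or any 1 E18 array (0.051 to 0.14), and the _g one without E9.5 replicate 2, any 1 E12 array, E14 replicate 1 or 2, or any 1 E18 array (0.05 to 0.22). Both were also lost under the lot block, the replicate block, the Gapdh covariate and a floor at the 10th percentile (0.054 to 0.43). The median of 26S subunits was nonetheless lower at E14, by -0.22, with 35 of 42 fitted below 0, where the median of all probe sets was -0.01. Within lots, whose meaning the labels do not give, it was -0.065 in lot 1 and -0.465 in lot 2.

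At E16 against E14, E18 against E16 and P0 against E18, 0 members were called by limma, where 1.69%, 0.0768% and 0.125% of all probe sets were. At an unadjusted p under 0.05 there were 9, 10 and 11. The share of all probe sets at that unadjusted threshold is not given, so these counts do not set members against other genes. Without P0 replicate 4, 9 members were called at P0 against E18. For fits with an array left out, here and below, the share of all probe sets called is not given. Such counts do not set members against other genes. The F-test over all 6 stages called 35 members (29.2%, where 29% of all probe sets were called). Over the 5 nerve stages it called 14 (11.7%, where 13.1% of all were). By that count the members varied between stages about as often as other genes. The 14 stood for 12 genes, led by Usp3, Psmd12, Uchl1, Ube2r2 and Uchl5. The count over 6 stages was 20 and 22 without E9.5 replicates 2 and 3 and 56 without P0 replicate 4. Over the nerve stages it was 8, 7 and 6 without E12 replicates 1, 2 and 4, 9 without E14 replicate 1, 9 without E18 replicate 2 and 31 without P0 replicate 4.

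The widest comparison within the nerve, P0 against E12, asks how newborn Schwann cells differ from their precursors. Of 120 members 22 (18.3%), standing for 20 genes, were lower at P0, where 11.8% of all tested probe sets were lower. None was higher by limma (0 of 120, where 4.53% of all were higher), and 5 were higher at an unadjusted p under 0.05. For that unadjusted threshold the share of all probe sets is not given. Among members at or above the median level of the array 18 of 81 (22.2%) were lower, where 15.7% of all probe sets at such levels were. Of the 120 members 89 (74.2%) were fitted below 0, where 51.5% of all were, and the median member changed by -0.38 on the log2 scale, where the median of all probe sets was -0.02. In 19 of the 22 falls every P0 array was below every E12 array, the others being Psme3ip1, Ube2e1 and Usp10. The falls were called from these same arrays, so that separation adds no support. Its share over all probe sets is not given.

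With single arrays left out, the count of lower members moved widely. Without P0 replicate 4 it was 43, with 3 members higher. Without P0 replicate 3 it was 8, and without P0 replicate 1 it was 12. Without E12 replicates 1, 2 and 4 it was 12, 13 and 10. With P0 replicate 4 as the only P0 array, and that lone array assumed to vary like the other stages, 2 members were lower (Psmd12 and Uchl1) and the median was -0.002. With the Gapdh 3′ over 5′ ratio as a covariate 8 were lower, 7 of them among the 22 (Psma1, Psmd12, Psme4, Ube2b, Ube2r2, Uchl1 and Uchl5), and the median was -0.095 where that of all probe sets was 0.031. Without the lot 1 arrays of E16 and P0 16 were lower, 12 of them among the 22. The share of all probe sets called can move with these settings and is not given. These counts therefore do not set members against other genes.

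**Figure D4:**
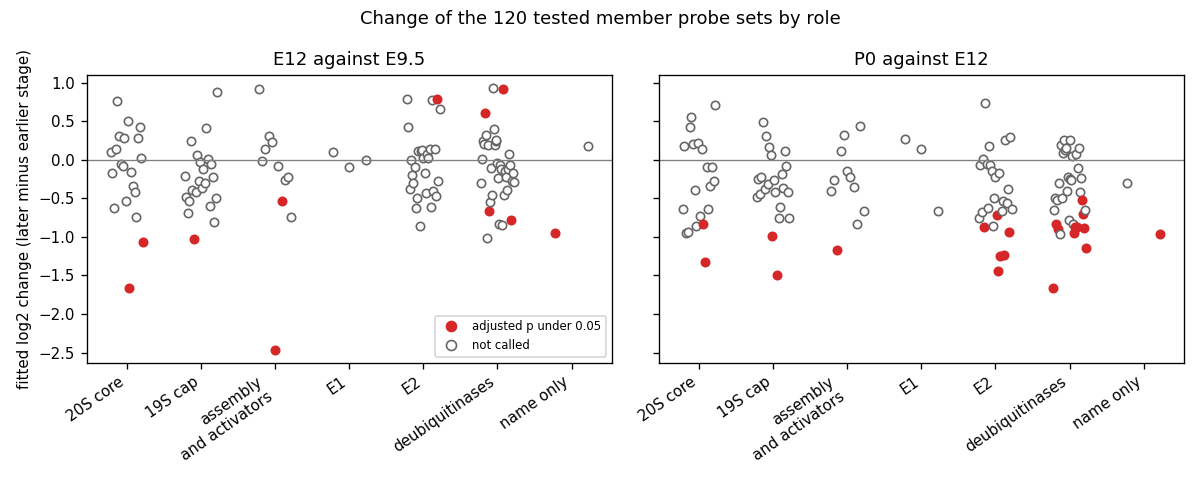
Fitted log2 change of each tested member by role group at E12 against E9.5 and at P0 against E12, 1 point a probe set, filled where the adjusted p was under 0.05. At P0 the filled points all lie below 0 and include 10 probe sets of deubiquitinases and 6 of E2 enzymes.

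Within the 20S core, the gate-forming alpha subunits and the beta subunits differed in their summaries over probe sets. All 7 alpha probe sets were fitted below 0 at P0, with a median of -0.64, and 2 of them were called, where 11.8% of all probe sets were lower. The 12 probe sets of beta subunits, for 7 genes, had a median of 0.02, with 6 below 0 and 0 called. That median counts several probe sets of Psmb1, Psmb4 and Psmb5, which differed in sign within each gene. They ran from -0.335 to 0.56, -0.277 to 0.715 and -0.953 to 0.421. The difference between the groups was not tested. Within lot 4, which holds P0 replicate 4 and E12 replicate 4, the alpha median was -0.04, and within lot 1 it was -1.24.

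Psma1, an alpha subunit, had 301.9, 337.9 and 612.6 on P0 replicates 1, 3 and 4, against 865.1, 942.4 and 1216 on E12 replicates 1, 2 and 4. No P0 array reached the lowest E12 array, and P0 replicate 4 was the highest of its stage. The fall was 2.51-fold, -1.33 on the log2 scale (SE 0.268, limma adjusted p = 0.00267). The index had been 1116 to 1366 at E9.5, and the stages between lay at 591.7 to 925.6 at E14, 419.6 to 837.2 at E16 and 432.9 to 482.6 at E18. Psma5, another alpha subunit, had 643.7, 884 and 1568 at P0 against 1703, 1663 and 1778 at E12, a change of -0.83 (adjusted p = 0.0316). That call was lost without any 1 E12 array or without P0 replicate 1 or 3 (adjusted p from 0.076 to 0.16). Psma7 had 579.2, 579.8 and 1105 at P0 against 1372, 1620 and 983.4 at E12, and was not called (-0.85, adjusted p = 0.0955).

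The 3 catalytic beta subunits gave no call at P0 against E12. Psmb5, which carries the chymotrypsin-like activity, disagreed between its probe sets. On that of the _s class it had 262.8, 246.1 and 971.6 at P0 against 694.3, 724.4 and 906 at E12, and on the plain one 757.3, 266.8 and 369.5 against 474.8, 298.7 and 219.6. Their changes were -0.95 and 0.42 (limma adjusted p = 0.143 and 0.507). Psmb6, with caspase-like activity, had 186, 630.4 and 879.7 at P0 against 966.6, 1013 and 731.3 at E12, a change of -0.93 (adjusted p = 0.204). Psmb7 changed by 0.14 (adjusted p = 0.894). On all of these probe sets but the second of Psmb5, P0 replicate 4 was the highest P0 array.

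No interferon-inducible member was called at P0 against E12. Psmb10, the immunoproteasome subunit that interferon induces in place of Psmb7, had 462.4, 467.7 and 657.7 at P0 against 532.8, 458.8 and 405.6 at E12 (0.17, adjusted p = 0.515). Of the 18 tested interferon genes 6 rose over the same interval, Psmb9 was not above the floor on any array, and Psmb8 averaged 163.3 at P0 and 115.1 at E12. Psme1, part of the interferon-inducible activator ring PA28, had 368.6, 394.4 and 343.9 at E12 against 161.8, 183.4 and 251.8 at E9.5. That difference, 0.91, missed the threshold (adjusted p = 0.0728), and at P0 against E12 the change was -0.4 (adjusted p = 0.451).

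In the 19S cap, 2 of 22 probe sets were called at P0 against E12, a share below the 11.8% of all probe sets, and the median change was -0.34. Psmd12, a scaffold subunit of the lid, on a probe set of the _f class, had 331.6, 329.7 and 694 on P0 replicates 1, 3 and 4, against 1164, 1303 and 1118 on E12 replicates 1, 2 and 4. The stages were far apart, with P0 replicate 4 again the highest of its stage. The fall was 2.82-fold, -1.49 on the log2 scale (SE 0.229, limma adjusted p = 0.000279), the lowest p of any member in this comparison. The arrays of the stages between also lay below E12, with 674.6 to 964.8 at E14, 600.6 to 707.1 at E16 and 515.6 to 700.9 at E18. Psmc6, an ATPase of the ring, had 1111, 1343 and 2790 at P0 against 3155, 3168 and 3243 at E12 (-0.99, adjusted p = 0.0173). It was not called without E12 replicate 2 or P0 replicate 1 or 3 (adjusted p from 0.053 to 0.095).

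Among activators and assembly factors at P0 against E12, 1 of 11 probe sets was called, also a share below 11.8%. Psme4, the PA200 activator, which caps the core in the nucleus, had 363.2, 471.3 and 778.6 at P0 against 983.5, 1387 and 1110 at E12. It fell by 1.17 on the log2 scale (SE 0.247, 2.25-fold, limma adjusted p = 0.00385), with no overlap between the stages. Psme3ip1, matched by name alone and not a proteasome subunit, was called at the edge of the threshold (-0.97, adjusted p = 0.05). Its call was lost without any 1 array but E16 replicate 3 and P0 replicate 4 (adjusted p from 0.054 to 0.25).

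Nfe2l1 and Nfe2l2 are known to act through antioxidant response elements, and proteasome genes are among the known targets of Nfe2l1. For this reason promoters are shown for 4 of the genes whose falls at P0 were called in all 30 alternatives. The 4 are a chosen part of these genes. Ube2r2 was also called in all 30, and its promoter is not shown. Each promoter shown is a RefSeq window of 300 bases on GRCm38.p6. It has 250 bases before the start site and 50 after it, written 5′ to 3′ on the gene's strand. Capitals mark matches, on either strand, to the antioxidant response element core TGACNNNGC, to the CCAAT box CCAAT and to the ETS site core CCGGAAG. No matches overlapped in these windows.
Psma1, chr7:114276067-114276366, minus strand: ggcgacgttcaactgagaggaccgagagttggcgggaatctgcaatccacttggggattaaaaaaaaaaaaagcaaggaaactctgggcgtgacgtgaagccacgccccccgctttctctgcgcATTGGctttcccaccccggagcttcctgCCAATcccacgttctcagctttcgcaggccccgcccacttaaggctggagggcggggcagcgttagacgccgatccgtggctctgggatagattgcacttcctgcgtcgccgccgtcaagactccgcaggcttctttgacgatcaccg
Psmd12, chr11:107479278-107479577, plus strand: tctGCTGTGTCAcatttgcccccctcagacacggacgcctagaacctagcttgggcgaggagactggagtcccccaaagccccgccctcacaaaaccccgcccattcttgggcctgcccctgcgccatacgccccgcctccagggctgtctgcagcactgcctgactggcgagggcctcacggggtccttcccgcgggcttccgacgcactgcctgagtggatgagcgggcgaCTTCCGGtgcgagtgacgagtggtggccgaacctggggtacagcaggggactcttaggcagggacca
Psme4, chr11:30771525-30771824, plus strand: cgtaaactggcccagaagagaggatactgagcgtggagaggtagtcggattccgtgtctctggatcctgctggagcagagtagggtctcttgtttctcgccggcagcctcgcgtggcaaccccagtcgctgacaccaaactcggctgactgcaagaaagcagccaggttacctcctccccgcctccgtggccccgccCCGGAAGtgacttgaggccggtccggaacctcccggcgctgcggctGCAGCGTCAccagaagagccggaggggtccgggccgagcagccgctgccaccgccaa
Uchl5, chr1:143777028-143777327, plus strand: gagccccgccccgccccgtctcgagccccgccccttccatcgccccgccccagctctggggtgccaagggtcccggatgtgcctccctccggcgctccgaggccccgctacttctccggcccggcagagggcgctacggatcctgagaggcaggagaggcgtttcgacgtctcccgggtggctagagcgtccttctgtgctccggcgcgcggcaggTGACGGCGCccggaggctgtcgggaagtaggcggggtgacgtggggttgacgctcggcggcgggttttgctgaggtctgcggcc

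Of these 4 chosen windows 3 hold TGACNNNGC. Positions are counted from the start site to the leftmost base of a match as printed. TGACNNNGC lies at -247 in Psmd12 and -7 in Psme4, both on the strand opposite to the gene. In Uchl5 it lies at -34 on the gene's strand. Psma1 holds CCAAT at -126 on the opposite strand and at -98 on its own. Psmd12 holds CCGGAAG at -17 on the opposite strand, and Psme4 at -53 on its own. Of the 97 member genes 76 matched the promoter table by gene identifier. TGACNNNGC was found in 14 of them (18.4%), in 5 of the 17 matched genes that fell at P0 (29.4%) and in 4 of 26 genes of 26S subunits (15.4%). It was in 12.5% of the 27025 promoters of the table and in 13.2% of protein-coding ones. CCGGAAG was found in 21 member genes (27.6%) and 9 of 26 genes of 26S subunits (34.6%), where all promoters had 9.12% and protein-coding ones 11.9%. CCAAT was in 31.6% of member genes and 37.9% of all promoters. The matches describe the letters of these windows and were not tested.

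**Figure D5:**
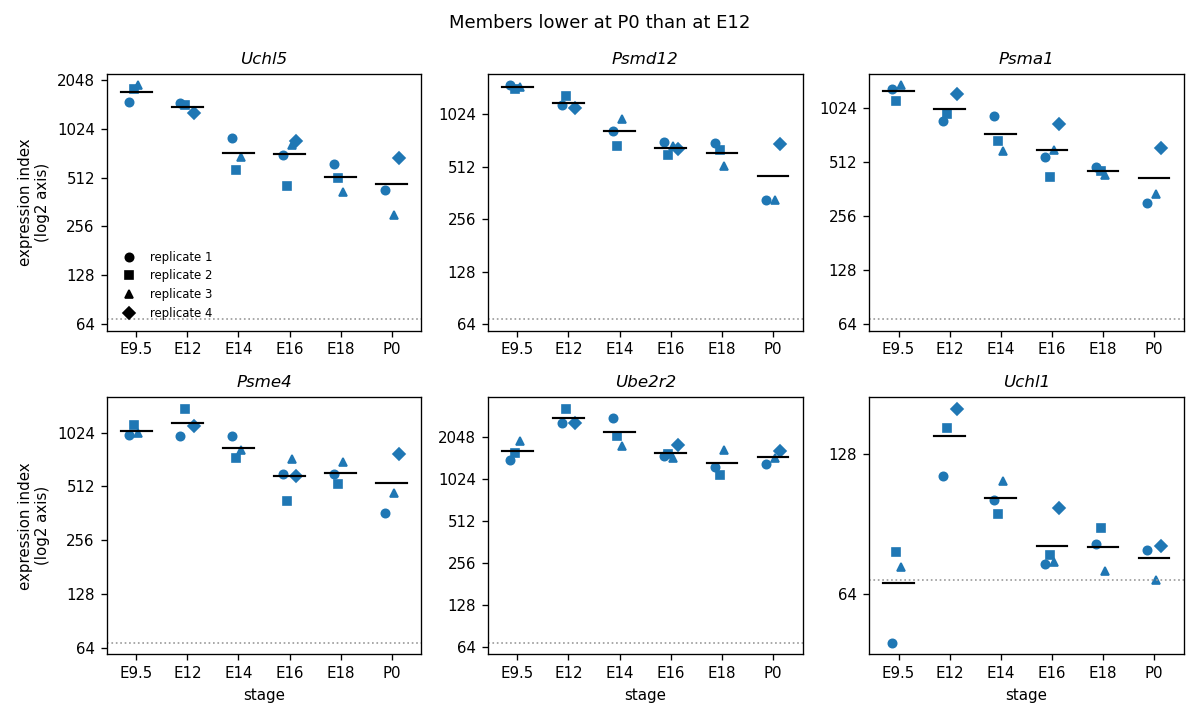
Index by stage on a log2 axis for the 6 members whose fall at P0 against E12 was called in every alternative for single genes that tested them, 1 mark an array, a bar at the stage mean and a dotted line at the floor. The P0 arrays lie below the E12 arrays in each panel, and P0 replicate 4 is the highest P0 array in each.

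The E1 enzymes showed 0 calls among 3 probe sets. Uba3, the catalytic subunit of the NEDD8-activating enzyme, had a mean of 865.2 ± 428.6 at P0 and 1269 ± 179.3 at E12 (SD, n = 3 each), a change of -0.67 (limma adjusted p = 0.164). Uba7, which activates the interferon-induced modifier Isg15, changed by 0.26 (adjusted p = 0.524). Uba1y, the Y-linked relative of the main ubiquitin E1, lay near the floor with a mean of 77.31 over the 19 arrays. Uba1 had no probe set with its symbol alone and was not analysed here.

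Of the 27 E2 probe sets 6 were lower at P0 and 0 higher, where 11.8% of all probe sets were lower and 4.53% higher, and the median was -0.54. Ube2r2, which had risen at E12, had 1317, 1458 and 1641 at P0 against 2588, 3281 and 2581 at E12. The 2 stages did not overlap, and P0 was back within the range of E9.5 (1407 to 1923) on 2 of its 3 arrays. The fall was 0.93 on the log2 scale (SE 0.195, 1.91-fold, limma adjusted p = 0.00357).

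Other E2 falls were in enzymes that work with many ligases. Ube2d2a had 298.9, 365.5 and 716.3 at P0 against 1034, 898.8 and 1126 at E12 (-1.25, adjusted p = 0.0235) on 1 of its 2 probe sets. Ube2b, a mouse counterpart of the yeast Rad6 enzyme of DNA damage tolerance, had 507.9, 232.9 and 357.9 against 883.3, 797.5 and 792.7 (-1.24, adjusted p = 0.0103). In Ube2b P0 replicate 1 was the highest P0 array. Ube2e1 had 220.2, 195.5 and 796 against 858.6, 733.8 and 1105 (-1.45, adjusted p = 0.0305), so P0 replicate 4 reached into the E12 range. Ube2d3 and Ube2k, named after their values were seen, fell by 0.88 and 0.71 (limma adjusted p = 0.021 and 0.00822), each on 1 of its 2 probe sets. Their other probe sets changed by -0.54 and -0.23 and were not called. Leaving out 1 array lost Ube2d2a (without E12 replicate 1 or 4 or P0 replicate 1 or 3, adjusted p from 0.067 to 0.11), Ube2b (without P0 replicate 3, 0.064), Ube2e1 (without any 1 E12 array or P0 replicate 1 or 3, 0.054 to 0.15) and Ube2d3 (without E12 replicate 1 or 4 or P0 replicate 1 or 3, 0.066 to 0.1).

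Of the 3 E2 enzymes listed with mitosis and DNA repair 0 were called at P0 against E12, and they were not tested against the cell cycle list. The 21 cell cycle genes measured had 12 lower and 0 higher at P0 against E12, with a median of -1.20, and a summed index of 11450 to 13550 at P0 against 19880 to 22080 at E12. Ube2c, the E2 of the anaphase-promoting complex, had 144.6, 67.04 and 65.75 at P0 against 81.04, 111 and 101.8 at E12, with 2 P0 arrays at the floor (-0.14, adjusted p = 0.822). Its partner Ube2s had a mean of 639.2 at P0 and 524.2 at E12 (0.26, adjusted p = 0.531), and Ube2t, of DNA crosslink repair, changed by -0.68 (adjusted p = 0.229). At E12 against E9.5 all 3 were fitted below 0 and 0 were called, where 7 cell cycle genes fell. Ube2c was represented by 1 probe set, of the class with reduced selection rules (suffix _r).

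The deubiquitinases were the largest group. Of their 35 probe sets 10 were lower at P0 and 0 higher, where 11.8% of all probe sets were lower and 4.53% higher, and the median was -0.50. No test compared the role groups. Uchl5, the hydrolase that sits on the 19S cap and trims ubiquitin chains there, fell furthest of all members. It had 429.7, 298.6 and 672.9 on P0 replicates 1, 3 and 4, against 1479, 1447 and 1276 on E12 replicates 1, 2 and 4. The fall was 3.16-fold, -1.66 on the log2 scale (SE 0.281, limma adjusted p = 0.000652). Arrays at E14 had 904.8, 570.8 and 689.2, so the level was already below E12 there, though E14 against E12 was not called.

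Uchl1 fell back at P0 after its rise at E12. It had 79.65, 68.46 and 81.22 at P0 against 114.8, 145.5 and 160.3 at E12, a fall of at least 1.82-fold with 1 P0 array at the floor (-0.87, SE 0.155, limma adjusted p = 0.00104). The P0 arrays lay within or just above the E9.5 range of 50.29 to 78.99. Both tested genes of the UCH family fell at P0, and at E12 against E9.5 Uchl5 changed by -0.30 and was not called.

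Usp14, another deubiquitinase of the proteasome cap, had 2 probe sets that disagreed. On the plain one it had 447, 327.3 and 792.8 at P0 against 873.4, 795.7 and 1212 at E12 (-0.95, limma adjusted p = 0.0247). On the other, of the _r class, it had 2704, 1752 and 1265 against 1456, 1462 and 1632, and was not called. The call on the plain one was lost without E12 replicate 1 or 4 or P0 replicate 1 or 3 (adjusted p from 0.051 to 0.13).

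Usp3 was lower at P0 on all 3 of its probe sets, by 0.52, 0.70 and 0.89 on the log2 scale (limma adjusted p = 0.0356, 0.0147 and 0.0391). The second and the third each had 1 P0 array at the floor, so these falls are at least 1.63-fold and 1.85-fold. On the strongest it had 675.9, 704.8 and 618.4 at P0 against 964.8, 992.4 and 906.5 at E12, with 371.6 to 508.1 at E18, below P0. Leaving out 1 array lost the first without any 1 E12 or P0 array (0.061 to 0.11), the second without E12 replicate 4 or P0 replicate 1 or 3 (0.067 to 0.073) and the third without any 1 E12 array or P0 replicate 3 (0.072 to 0.2). The first and the third were also lost under the lot block (0.058 and 0.055), the replicate block (0.054 and 0.051), quantile normalization (0.38 and 0.057) and arrays scaled to 1 median (0.11 and 0.058), the first with a floor at the 10th percentile (0.051), the second with one at the 40th (0.75) and the third with no filter on low values (0.061). Usp10, which acts on p53, had 250, 451.2 and 745.4 at P0 against 672, 1095 and 1230 at E12 (-1.14, adjusted p = 0.0448), and its stages overlapped. It was lost without any 1 of 12 arrays, which included E12 replicates 2 and 4 and P0 replicates 1 and 3 as well as 8 of E9.5, E14 and E18 (0.051 to 0.22). Usp48, Usp39 and Usp38, named after their values were seen, fell by 0.89, 0.87 and 0.84 (limma adjusted p = 0.0416, 0.00989 and 0.0323). Usp39 was called on 1 of its 2 probe sets, and the other changed by -0.499. Usp48 was lost without any 1 E12 array, P0 replicate 1 or 3, E9.5 replicate 3, E14 replicate 2 or E18 replicate 2 (0.05 to 0.2), Usp39 without P0 replicate 1 (0.055), and Usp38 without any 1 E12 array or P0 replicate 3 (0.069 to 0.17). Usp38 was also lost under the lot and replicate blocks (0.072 and 0.059), and Usp10, Usp48, Ube2e1 and Psme3ip1 with no filter (0.077, 0.065, 0.057 and 0.081).

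Within a lot, P0 against E12 sets 1 array against 1 array. Such comparisons gave the same direction for 22 of the 22 falls in lot 1 and 21 of 22 in lot 4. The falls were called from these same arrays, so that agreement was largely fixed in advance and adds no support. The medians were not alike in the 2 lots. At P0 against E12 the 26S subunits had a median of -0.515 in lot 1 and 0.115 in lot 4, where all probe sets had -0.059 and 0.016. E2 enzymes had -0.371 and -0.161, and deubiquitinases -0.466 and -0.283. In lot 4 the 26S median was above 0, while medians of E2 enzymes and deubiquitinases were below 0 in both lots. For E12 against E9.5, all 11 calls had the same direction in lots 1 and 2. Those calls too came from the same arrays, so their agreement adds no support.

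Genes with several tested probe sets numbered 22. Of the 22 falls at P0, 17 were on probe sets of the plain class (suffix _at alone), meant to match 1 gene. That is near the share of this class among the tested members, 94 of 120. With 1 probe set a gene, that with the highest mean, 18 of 93 genes were lower, where 11.8% of all probe sets were. The 10 member probe sets that failed the filter on low values were 1 each for Psme1, Uba1y, Ube2o, Ube2v2, Usp17la, Usp17lc, Usp29, Usp38, Usp4 and Usp42, with at most 1 array above the floor. Psme1, Uba1y, Ube2o, Ube2v2, Usp38 and Usp4 were also measured by another probe set.

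Other genes of the ubiquitin pathway, from a list of 92 genes of which 61 were on the array, are given for comparison. Of 83 tested probe sets 8, for 6 genes, were higher at E12 against E9.5 and 0 lower, where 9.7% of all probe sets were higher and 4.41% lower. The count of higher ones is near the share of all probe sets, and the median was -0.01. Sqstm1, the p62 receptor that carries ubiquitinated cargo to autophagy, had a mean of 882.8 ± 259.1 at E12 against 75.14 ± 25.97 at E9.5 (SD, n = 3 each). That is at least 10.8-fold higher with 2 E9.5 arrays at the floor (limma adjusted p = 0.000181). Nfe2l2, the transcription factor that binds antioxidant response elements, had 886.1 ± 262.8 at E12 against 178.1 ± 30.11 at E9.5 (4.86-fold, adjusted p = 0.00044). Nedd4l, a HECT ligase of membrane proteins, rose 5.6-fold on its stronger probe set (adjusted p = 2.04e-06), and Rnf11, a RING protein that binds such ligases, 2.58-fold (adjusted p = 0.000982). The count of higher probe sets was 6 to 8 with 1 array left out, and 3 at most were lower.

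At P0 against E12, 15 of the 83 probe sets, for 14 genes, were lower and 0 higher, with a median of -0.35. The HECT ligase Wwp2 fell on both of its probe sets, by 1.94 and 1.62 on the log2 scale (limma adjusted p = 0.000594 and 7.72e-05), after it had risen at E12. Ube4b, which extends ubiquitin chains, fell by 1.75 (adjusted p = 0.0115), Cdc16, a subunit of the anaphase-promoting complex, by 1.58 (adjusted p = 0.0028), and Ubqln2, a shuttle to the proteasome, by 1.36 (adjusted p = 0.00613). The count was 10 without E12 replicate 2 or P0 replicate 3 and 29 without P0 replicate 4. The share called, 15 of 83 against 11.8% of all probe sets, stood beside the 22 of 120 of the members.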

How the data were processed

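RNA of cells sorted for a green fluorescent reporter was measured on 19 Affymetrix mouse arrays at 6 stages. Per the labels, target came from 2 rounds of in vitro transcription and scans were read with MAS 5.0. The deposited values are intensities on a linear scale, a model-based expression index that the authors computed with dChip after its smoothing spline normalization, with probe sensitivities from 18 arrays, per the labels. E9.5 replicates 2 and 3 carry no such text. No arrays were identical (0 pairs), and 66 control probe sets were set aside. Of the other 12422, 10833 had 1 symbol, 396 several and 1193 none. Members need 1, so Psme2, whose 2 probe sets carry a pair of symbols, was not named.

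The members and lists were chosen with earlier results of these data known. A floor at the 25th percentile, 68.52, replaced lower values before log2 was taken, and probe sets above it on fewer than 3 arrays were dropped, leaving 10414. A model with 1 mean a stage was fitted with limma 3.58.1 (lmFit, eBayes; R 4.3.3; 13 residual degrees of freedom), with p-values adjusted by Benjamini-Hochberg within each comparison, two-sided, at 0.05. A fold is given as a lower bound where an array of the lower stage lay at the floor. The fit was tested on simulated data with independent noise, without a shift shared by the probe sets of an array. That test does not cover arrays with such a shift. The number of arrays limits the precision.

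Genes named are the largest called changes in each main comparison (at most 12 each way, and 5 in other intervals), the highest probe set of a role group, up to 4 each way from the pathway list, all of any count of 5 or fewer, and a fixed set (Uba1, Psmb5, Psmb6, Psmb7, Uchl1, Ube2c, Psmb10, Psme1, Psme2 and others not reported here) where they had a probe set of their own. Alternatives were other floors, no filter, quantile and median scaling, lot and replicate blocks, the Gapdh ratio as a covariate, array weights, an intensity trend, and leaving out arrays. Lot and replicate numbers were checked for pairing: same-lot arrays of different stages had a mean correlation of deviations of 0.042 (39 pairs, -0.354 to 0.714) and same-replicate arrays 0.022, so the numbers were not taken to pair the samples.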

Additional observations from a re-analysis of the deposited data

Results flagged for a closer look

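Within the 4 arrays of E16, 3 of the 36 named probe sets checked had 1 array far from the other three, and chance gives about 1 in 20 such groups. All 3 were E16 replicate 4. Psmb6 had an index of 519.9 there, against 189 to 240.1 on the other E16 arrays. Psme3 had 208.6, against 63.46 to 74.24. Uchl1 had 97.88, against 74.35 to 77.59. On that array the Gapdh 3′ over 5′ ratio was 3.84, the lowest of its stage; its part in these values was not tested.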

How the results depend on the processing

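Counts of members moved with the processing as follows, and the cause was not tested. The share of all probe sets called can move with the setting too and is not given here. The counts in this section therefore do not set members against other genes. At E12 against E9.5 (main counts 3 higher, 8 lower), higher members numbered 6 with the Gapdh covariate and 11 with array weights; lower members numbered 5 with no filter, 18 with quantile normalization, 14 with arrays scaled to 1 median and 27 with array weights. At E14 against E12 (2), they numbered 0 with the 10th percentile floor, 1 with quantile normalization, 0 with the covariate and 18 with weights. At E16 against E14 (0) they were 1 with the covariate and 7 with weights, at E18 against E16 (0) 12 with weights and at P0 against E18 (0) 10 with weights. At P0 against E12 higher members (0) numbered 2 with the 40th percentile floor, 1 with no filter, 2 with quantile normalization, 2 with median scaling, 1 with weights and 1 without E16 replicates 1 and 2 and P0 replicates 1 and 3; lower members (22) numbered 8 with the covariate, 41 with weights, 2 with P0 replicate 4 alone and 4 without those 4 arrays, the last a pair of settings added after the data were seen. The F-tests gave 93 (6 stages) and 71 (nerve stages) with weights.

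With 1 array left out, E12 against E9.5 gave 1 to 4 higher and 3 to 14 lower, E14 against E12 0 to 3, P0 against E18 0 to 9, P0 against E12 0 to 3 higher and 8 to 43 lower, and the F-tests 20 to 56 and 6 to 31; the pathway list gave 6 to 8 higher and 0 to 3 lower at E12, and 0 to 2 higher and 10 to 29 lower at P0. Where the lone P0 array was used, it was assumed to vary like the other stages.

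The lot block and the replicate block each gave 13 lower at E12 against E9.5 and 0 at E14 against E12; the replicate block gave 54 over 6 stages, and 19 of the 22 falls at P0 were kept under either block. For the pathway list, lower counts at E12 (0) were 1 with the 40th percentile floor, 7 with quantile normalization, 7 with median scaling, 2 with the lot block, 1 with the replicate block, 11 with weights and 2 without the lot 1 arrays of E16 and P0. At P0 its higher counts (0) were 1, 2, 2, 1, 2 and 1 with the 40th percentile floor, quantile normalization, median scaling, covariate, weights and those arrays left out, and lower counts (15) were 8 with the covariate and 30 with weights.

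Within lots, the deubiquitinase median at E12 was -0.26 in lot 2, and at P0 the 26S and E2 medians in lot 4 were 0.115 and -0.161. Of the single-gene results, 1223 kept their side of the threshold under an alternative, 201 lost it and 14 gained it; 13 changed sign, all of them values of Psmb5, Psmb6, Psmb7 or Ube2c that had not been called. Indices near the floor, such as those of Uchl1 and Ube2c, are limited by signal over background.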
